A study of Mus musculus with 8 samples.

Results

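The genes described here set the pace of the G1 phase in the progenitors of the embryonic mouse forebrain: the D cyclins Ccnd1, Ccnd2 and Ccnd3, their kinase partners Cdk4 and Cdk6, the Myc family genes Mycn and Myc, and the antiproliferative genes Cdkn1a, Cdkn1b and Btg1. They were taken by gene symbol, as 10 of the 43629 gene IDs in the deposited tables, and all 10 had enough counts to be tested. A D cyclin binds CDK4 or CDK6, and the complex phosphorylates the retinoblastoma protein, which frees E2F transcription factors to switch on genes for DNA synthesis. MYC proteins promote growth and G1 progression, while the proteins p21 (from Cdkn1a) and p27 (from Cdkn1b) bind cyclin-kinase complexes and hold cells in G1 or keep them out of the cycle. In mouse cerebellar granule cell precursors, Ccnd1 and Mycn are well known to respond to Sonic hedgehog (SHH), the pathway that SUFU restrains by binding GLI transcription factors.

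At E12.5, dorsal forebrain from male embryos of a mixed background with C57BL/6J was profiled by RNA sequencing. Mut_295, Mut_317, Mut_337 and Mut_340 are the 4 Sufu-cKO samples, of genotype Emx1-cre/+;Sufu-fl/fl, in which cre made from the Emx1 locus in dorsal telencephalic progenitors removes floxed Sufu sequence from them and from their descendants. Cont_294, Cont_345, Cont_365 and Cont_370 are the 4 controls, which carried Sufu-fl/fl or Sufu-fl/+ and no listed cre, and the labels do not say which control had which genotype. Floxed Sufu was therefore shared by all groups, and vessels, blood cells and other cells outside the Emx1 lineage keep Sufu in Sufu-cKO tissue. Total counts lay between 27514357 and 34878838 per sample. Sufu, the check of the labels, averaged 40.6 ± 4.64 CPM in Sufu-cKO and 112 ± 9.13 CPM in control samples (CPM, TMM-scaled for library size; SD, n = 4 each), with no overlap.

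The labelled tissue was checked against markers. All 10 neural progenitor markers (such as Sox2 and Pax6), all 8 intermediate progenitor markers and all 13 young neuron markers listed were detected in both genotypes. Their summed levels were 4028 to 4159 CPM in Sufu-cKO and 3008 to 3247 CPM in control samples for progenitors, and 3005 to 3256 CPM in Sufu-cKO and 2424 to 2838 CPM in control samples for young neurons. Of the progenitor markers 5 rose (Slc1a3, Pax6, Vim, Sox2 and Nes), and the other 5, Hes1, Hes5, Fabp7, Sox9 and Notch1, had log2 fold changes of -0.34 to -0.04 and were not called, with 2 of them at an unadjusted p under 0.05. Of the young neuron markers 7 rose and 0 fell. The shares to set beside these and the following counts are 5.34% called higher and 5.64% lower over all tested genes (edgeR). In a list of 7 or 10 markers, 1 call is little beyond these shares. The intermediate progenitor sums overlapped (823 to 957 CPM in Sufu-cKO, 776 to 954 CPM in control), with 3 members higher and 1 lower. Marker sums were lower for choroid plexus (92.2 to 293 CPM in Sufu-cKO, 529 to 805 CPM in control), where 6 of 9 tested members fell. They were also lower for pericytes (110 to 138 CPM in Sufu-cKO, 145 to 172 CPM in control), where 1 of 7 fell. For microglia they were 35.7 to 45.8 CPM in Sufu-cKO and 46.2 to 62.7 CPM in control, and 3 of 10 fell. Erythroid sums were lower too (3083 to 3547 CPM in Sufu-cKO, 3576 to 4714 CPM in control), with 0 of 10 called by edgeR. Of these 10 erythroid markers, 4 had an unadjusted p under 0.05 and 2 were called by DESeq2. Endothelial sums overlapped slightly (282 to 338 CPM in Sufu-cKO, 332 to 385 CPM in control; 3 of 10 fell), and GABAergic sums ranged widely within each genotype (30.6 to 173 CPM in Sufu-cKO, 10.8 to 103 CPM in control; 1 of 10 rose). No listed marker was at 0 in every sample. In bulk tissue, fewer cells of a type and less RNA per cell cannot be told apart, and the part of these shifts in the results that follow was not tested.

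Ccnd1 and Cdk6 rose in Sufu-cKO dorsal forebrain, and Mycn and Btg1 fell. These 4 were called by edgeR's quasi-likelihood test at an adjusted p under 0.05 over all 15382 tested genes, where 5.34% of genes were called higher and 5.64% lower (11.0% in all). For the same 4 genes every Sufu-cKO sample lay outside the control range, as for 16.2% of tested genes (8.33% with Sufu-cKO higher, 7.86% lower). Ccnd2, Ccnd3, Myc, Cdk4, Cdkn1a and Cdkn1b overlapped between genotypes and did not pass. The D cyclins, their kinases and the Myc genes thus each held 1 gene that changed and at least 1 that was not called. Of the antiproliferative genes Btg1 was called, and the CDK inhibitor genes Cdkn1a and Cdkn1b were not.

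**Figure D1:**
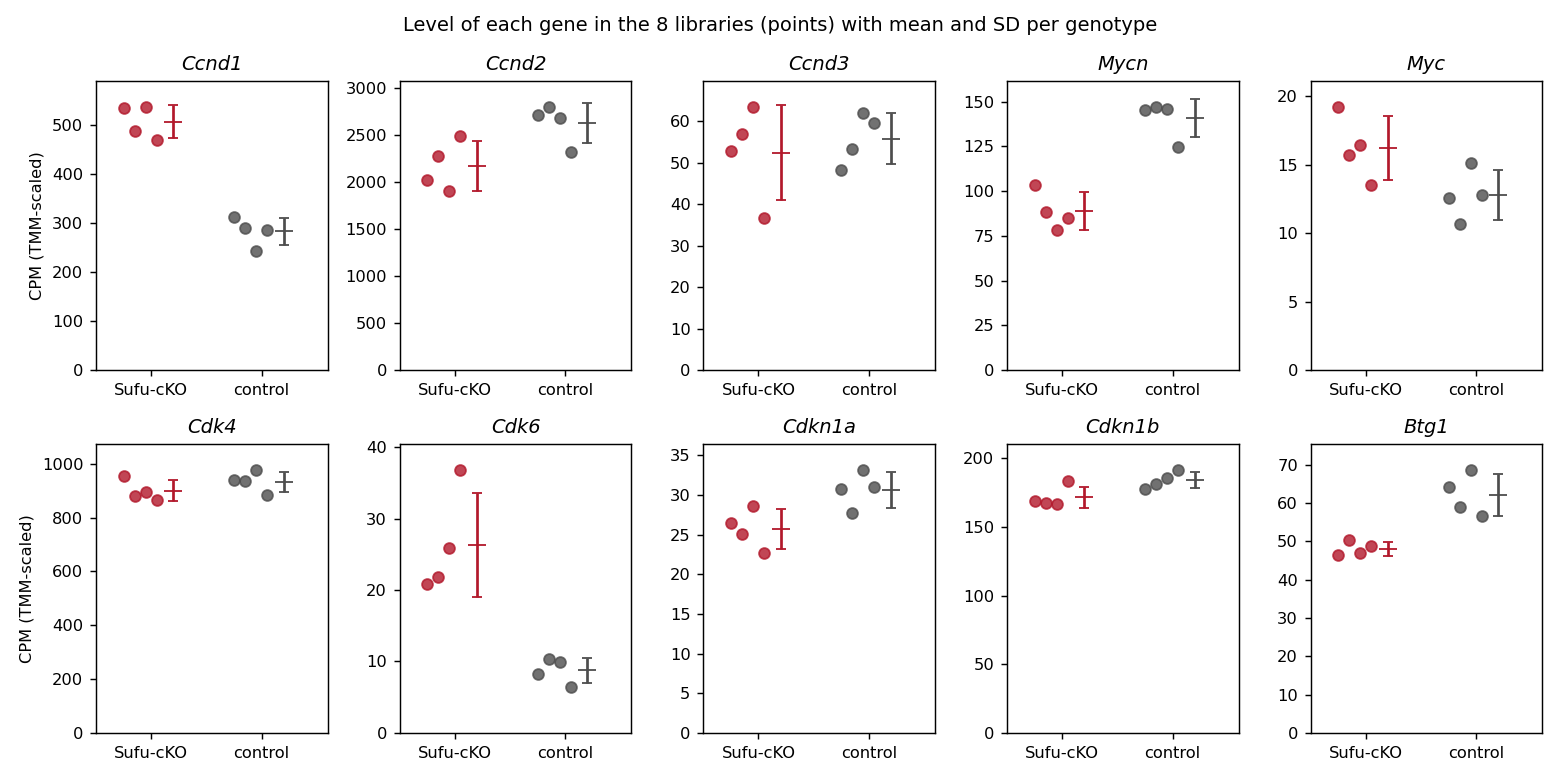
Level of each of the 10 genes (CPM, linear axis from 0) in the 4 Sufu-cKO and 4 control libraries; points are libraries, and the bar beside them is the mean with SD. The groups are fully apart for Ccnd1 and Cdk6 (Sufu-cKO higher) and for Mycn and Btg1 (Sufu-cKO lower).

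Per length of exon the genes spanned a wide range of levels. Cdk4 averaged 277 ± 12.1 RPKM in Sufu-cKO and 287 ± 11.5 RPKM in control samples (CPM per kb of annotated exon; SD, n = 4 each), and Ccnd2 averaged 231 ± 27.8 RPKM in Sufu-cKO and 279 ± 22.4 RPKM in control. Below them in Sufu-cKO came Ccnd1 (108 RPKM), Cdkn1b (37.6), Mycn (26.99), Btg1 (9.12), Cdkn1a (7.23), Ccnd3 (5.97), Myc (5.97) and Cdk6 (1.88). The control order was Ccnd1 (60.0 RPKM), Mycn (42.7), Cdkn1b (40.4), Btg1 (11.8), Cdkn1a (8.63), Ccnd3 (6.36), Myc (4.71) and Cdk6 (0.625), so that Mycn stood above Cdkn1b by mean in controls and below it in Sufu-cKO. Neighbours whose sample ranges overlapped were Cdkn1a with Ccnd3 and Ccnd3 with Myc in Sufu-cKO, and Cdk4 with Ccnd2, Mycn with Cdkn1b, and Ccnd3 with Myc in controls. With the length of the longest APPRIS principal transcript instead of all annotated exons, a choice made after seeing the data, Ccnd3 moved up to the 6th place in both genotypes (24.8 ± 5.40 CPM per kb in Sufu-cKO, 26.4 ± 2.94 in control). Btg1 moved down, to the 9th place in Sufu-cKO (9.62 ± 0.370 CPM per kb) and the 8th in control (12.4 ± 1.09), below Cdkn1a in both, so the order of Btg1, Cdkn1a, Ccnd3 and Myc depends on the length used.

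Ccnd1 (ENSMUSG00000070348, chromosome 7, 144929931 to 144939869, minus strand, GRCm38) encodes cyclin D1. Its level was 534, 487, 536 and 469.7 CPM in Mut_295, Mut_317, Mut_337 and Mut_340, against 311, 289.7, 244 and 286 CPM in Cont_294, Cont_345, Cont_365 and Cont_370. The lowest Sufu-cKO sample was far above the highest control. Ccnd1 rose 1.79-fold (log2 fold change 0.84, SE 0.076; edgeR, adjusted p = 2.40e-05). In the authors' deposited table the fold change was 1.79 with a false discovery rate of 5.01e-17.

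Ccnd2 (ENSMUSG00000000184, chromosome 6, 127125779 to 127151048) encodes cyclin D2, whose mRNA is known to be carried into the basal processes of radial glia in mouse cortex. It had 2025, 2272, 1899 and 2486 CPM in Mut_295, Mut_317, Mut_337 and Mut_340, and 2714, 2794, 2676 and 2318 CPM in Cont_294, Cont_345, Cont_365 and Cont_370. Mut_317, Mut_295 and Mut_337 were below every control, while Mut_340 lay above Cont_370. The log2 fold change was -0.27 (95% interval -0.47 to -0.08), which did not pass (edgeR, adjusted p = 0.0709). The call turned on the settings: without Mut_340 (log2 fold change -0.35; edgeR, adjusted p = 0.0184), without Cont_370 (-0.34; edgeR, adjusted p = 0.0306) or with DESeq2 (adjusted p = 0.0222) Ccnd2 was called lower.

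Ccnd3 (ENSMUSG00000034165, chromosome 17, 47505051 to 47599691), the gene of cyclin D3, was the scarcest D cyclin. It had 52.7, 57.0, 63.4 and 36.6 CPM in Mut_295, Mut_317, Mut_337 and Mut_340, and 48.2, 53.4, 62.0 and 59.6 CPM in Cont_294, Cont_345, Cont_365 and Cont_370. Apart from the low value of Mut_340 the groups covered the same range. Its log2 fold change of -0.09 (95% interval -0.44 to 0.26; edgeR, adjusted p = 0.802) was 0.04 without Mut_340. That sample also had the lowest choroid plexus sum (92.2 CPM, against 255 to 293 CPM in the other Sufu-cKO samples), and the part of this in the Ccnd3 value was not tested.

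The make-up of the D cyclin pool differed between genotypes, while its summed level overlapped. Ccnd1 made up 33.9%, 29.4%, 35.2% and 27.1% of D cyclin transcripts per length in Mut_295, Mut_317, Mut_337 and Mut_340, against 18.4%, 16.9%, 15.1% and 19.3% in Cont_294, Cont_345, Cont_365 and Cont_370. Ccnd2 made up 66.8 ± 4.20% in Sufu-cKO and 80.7 ± 1.87% in control, and Ccnd3 1.75 ± 0.458% in Sufu-cKO and 1.85 ± 0.305% in control (SD, n = 4 each). Summed over the 3 genes, the level was 344 ± 19.8 RPKM in Sufu-cKO and 345.4 ± 22.9 RPKM in control. With principal transcript lengths the Ccnd1 share was 27.1 ± 3.24% in Sufu-cKO and 14.7 ± 1.61% in control. The Ccnd3 share was then 4.98 ± 1.29% in Sufu-cKO and 5.14 ± 0.820% in control. The summed level with those lengths was 503 ± 28.1 CPM per kb in Sufu-cKO and 517 ± 32.5 CPM per kb in control. The ratio of Ccnd1 to Ccnd2 counts within a library, which needs neither scaling nor length, was 0.189 to 0.282 in Sufu-cKO and 0.0910 to 0.123 in control samples. The ratio was 2.18-fold higher in Sufu-cKO (difference of mean log2 ratios 1.12; exact 2-sided permutation test, p = 0.0286, adjusted over 3 ratios 0.0286). That is the smallest p that the 70 arrangements of 4 against 4 allow, here and for the other ratios below. Each ratio holds a gene already called with its groups fully apart, so its p adds no support beyond that call.

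**Figure D2:**
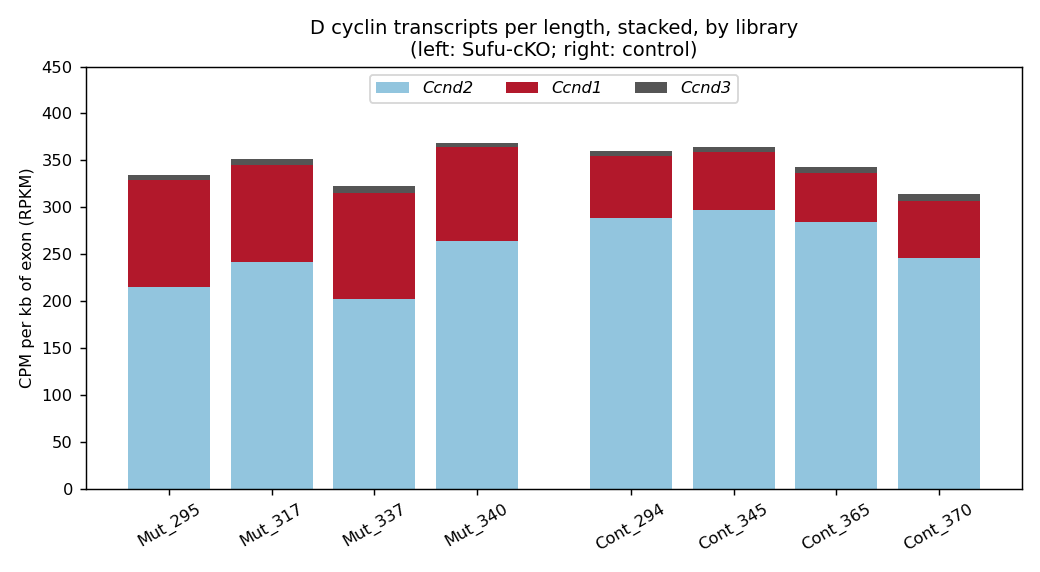
D cyclin transcripts per kb of exon (RPKM, linear axis from 0), stacked by gene for each library, with the 4 Sufu-cKO libraries on the left and the 4 control libraries on the right. Bar heights overlap (means of 344 RPKM in Sufu-cKO and 345.4 RPKM in control), while the Ccnd1 segment is taller in every Sufu-cKO library than in any control.

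The surroundings of Ccnd1 were examined after the values were seen. Within 250 kb of its start site 5 other genes were tested, and 3 of them rose, where 5.34% of all tested genes were called higher. These were Fgf15, an FGF ligand of embryonic brain progenitors, Ano1, a calcium-activated chloride channel, and the unnamed gene model Gm26793. Fgf15 starts 43.4 kb downstream of the Ccnd1 start, in the direction of Ccnd1 transcription, and had 206 to 304 CPM in Sufu-cKO and 1.39 to 8.84 CPM in control samples (log2 fold change 5.70; edgeR, adjusted p = 0.00119). Ano1, at 188 kb, had 29.2 to 48.1 CPM in Sufu-cKO and 3.06 to 9.77 CPM in control samples (2.66; edgeR, adjusted p = 0.00769). Gm26793, at 42.5 kb, averaged 7.14 ± 0.908 CPM in Sufu-cKO and 0.513 ± 0.151 CPM in control (n = 4 each; 3.78; edgeR, adjusted p = 8.48e-07). Its start lies close to that of Fgf15, and whether both belong to the same locus was not tested. The gene nearest to Ccnd1, Oraov1 at 24.8 kb, was not called (log2 fold change -0.01; edgeR, adjusted p = 0.948). Oraov1 lies on the opposite strand and shares 1100 of the 4709 annotated exon bases of Ccnd1, and it had 939 to 1258 counts per sample, against 7708 to 18274 for Ccnd1. The strand setting of the counting is not known, so reads in the shared bases may have gone to either gene. Fgf3, at 101.8 kb, was nearly silent (0.663 ± 0.368 CPM in Sufu-cKO and 0.151 ± 0.259 CPM in control), and its call differed between tools: it passed with limma-voom (adjusted p = 0.0380) and not with edgeR (adjusted p = 0.226) or DESeq2 (adjusted p = 0.184). Within 250 kb, the tested genes numbered 3 near Ccnd2, 11 near Ccnd3, 1 near Myc, 2 near Cdk6 and 8 near Cdkn1a. Of these, 0 were called by edgeR or DESeq2, and 0 had an unadjusted p under 0.05. Near Cdk4, 2 of 21 tested genes were called, and near Cdkn1b 1 of 8. Both counts were near the 11.0% called among all tested genes. There was no tested gene near Mycn or Btg1.

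**Figure D3:**
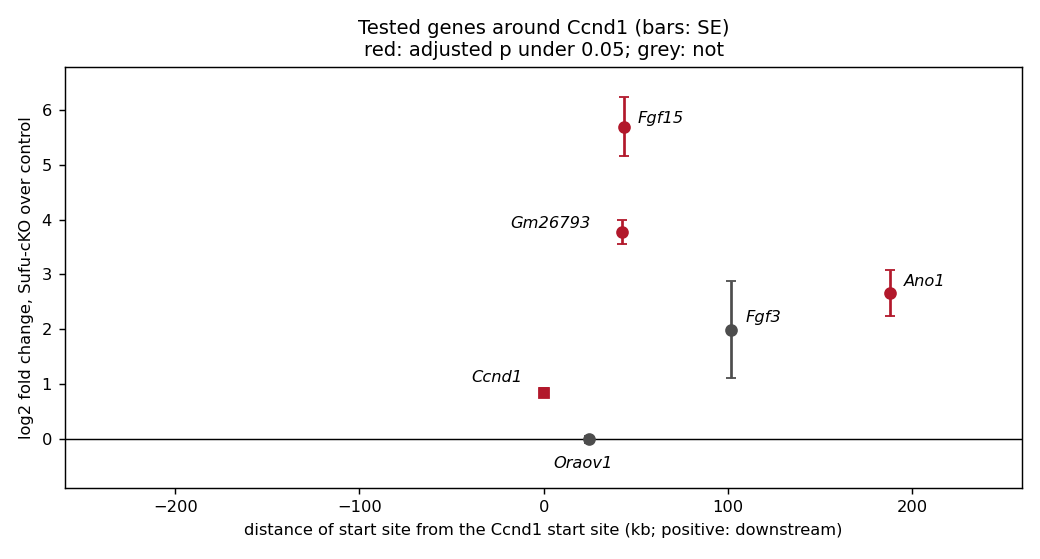
Log2 fold change (Sufu-cKO over control, with SE) of tested genes against the distance in kb of their start site from that of Ccnd1, positive in the direction of its transcription. Fgf15, Gm26793 and Ano1 lie at 5.70, 3.78 and 2.66, above Ccnd1 at 0.84, and Oraov1, the nearest, lies at -0.01.

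Of the kinases, the scarce one rose and the abundant one was not called. Cdk6 (ENSMUSG00000040274, chromosome 5, 3343893 to 3523218) had 20.9, 21.9, 25.8 and 36.8 CPM in Mut_295, Mut_317, Mut_337 and Mut_340, against 8.20, 10.4, 9.98 and 6.41 CPM in Cont_294, Cont_345, Cont_365 and Cont_370. The groups lay far apart, and Mut_340 was the highest. Cdk6 rose 3.02-fold, more than any other of the 10 genes (log2 fold change 1.60, 95% interval 1.13 to 2.06; edgeR, adjusted p = 0.000883), and by 1.38 on the log2 scale without Mut_340. The authors' deposited table gives a fold change of 3.01 with a false discovery rate of 1.93e-05.

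Cdk4 (ENSMUSG00000006728, chromosome 10, 127063534 to 127067920) had 956, 881, 896 and 867 CPM in Mut_295, Mut_317, Mut_337 and Mut_340, and 938, 935, 977 and 886 CPM in Cont_294, Cont_345, Cont_365 and Cont_370. The ranges were nearly the same. Its log2 fold change was -0.05 (95% interval -0.17 to 0.06; edgeR, adjusted p = 0.639). Tspan31, a gene on the opposite strand that shares 641 exon bases with Cdk4, stood at 0.01 (SE 0.052). Cdk6 made up 0.680 ± 0.208% of the transcripts of both kinases per length in Sufu-cKO, against 0.216 ± 0.039% in control (SD, n = 4 each). The ratio of Cdk4 to Cdk6 counts was 23.6 to 45.8 in Sufu-cKO and 90.3 to 138 in control samples (difference of mean log2 ratios -1.63; exact 2-sided permutation test, p = 0.0286, adjusted over 3 ratios 0.0286).

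Mycn fell, while Myc was not called. Mycn (ENSMUSG00000037169, chromosome 12, 12936096 to 12941914, minus strand), the family member known to be needed for the expansion of neural progenitors in mouse, had 104, 88.4, 78.5 and 85.2 CPM in Mut_295, Mut_317, Mut_337 and Mut_340, against 145, 147, 146 and 125 CPM in Cont_294, Cont_345, Cont_365 and Cont_370. All Sufu-cKO samples were below all controls. It fell by 0.66 on the log2 scale (95% interval -0.85 to -0.48; edgeR, adjusted p = 0.000370), to 0.632 of the control level. This direction was opposite to that of Ccnd1 in the same libraries.

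Myc (ENSMUSG00000022346, chromosome 15, 61985341 to 61990374) had 19.2, 15.7, 16.5 and 13.5 CPM in Mut_295, Mut_317, Mut_337 and Mut_340, and 12.6, 10.7, 15.2 and 12.8 CPM in Cont_294, Cont_345, Cont_365 and Cont_370. Only Cont_365 reached into the Sufu-cKO range. Its log2 fold change of 0.34 (95% interval 0.06 to 0.63) did not pass (edgeR, adjusted p = 0.133; 0.0707 to 0.325 over all alternatives). It had 293 to 580 counts per sample. Per length, Myc made up 18.1 ± 1.72% of the transcripts of the pair in Sufu-cKO and 9.96 ± 1.46% in control (SD, n = 4 each). These shares depend on the length used. With principal transcript lengths Myc and Mycn averaged 11.9 and 33.3 CPM per kb in Sufu-cKO, and 9.38 and 52.6 CPM per kb in control. The ratio of Mycn to Myc counts was 4.77 to 6.31 in Sufu-cKO and 9.63 to 13.7 in control samples, 0.497 of the control ratio (difference of mean log2 ratios -1.01; exact 2-sided permutation test, p = 0.0286, adjusted over 3 ratios 0.0286).

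**Figure D4:**
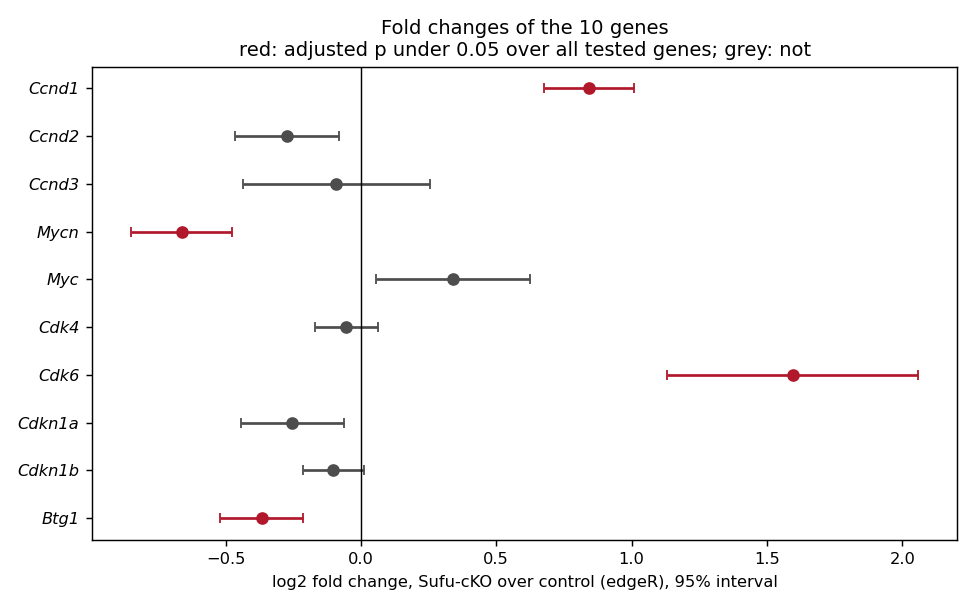
Log2 fold change of each gene (Sufu-cKO over control, edgeR) with its 95% interval; red marks an adjusted p under 0.05 over all tested genes, grey the rest. Cdk6 and Ccnd1 lie above 0, Mycn and Btg1 below it, and the intervals of Ccnd3, Cdk4 and Cdkn1b include 0.

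No promoter window was available for Ccnd1, Ccnd2 and Myc, so these were not searched for motifs. For the other 7 of the 10 genes, RefSeq (GRCm38.p6) gave 9 windows, from 250 bases before to 50 after the start site. Those of Cdk4, Cdk6 and Mycn are printed because they hold the only matches among these genes to 4 motifs searched on both strands: the E-box CACGTG, to which MYC proteins bind, the E2F site TTTCGCGC, the GLI site TGGGTGGTC and the TCF/LEF site CTTTGAT. Capitals mark the matches, none of which overlap each other, and each sequence runs 5′ to 3′ on the strand of its gene.
Cdk4, chr10:127063285-127063584, plus strand: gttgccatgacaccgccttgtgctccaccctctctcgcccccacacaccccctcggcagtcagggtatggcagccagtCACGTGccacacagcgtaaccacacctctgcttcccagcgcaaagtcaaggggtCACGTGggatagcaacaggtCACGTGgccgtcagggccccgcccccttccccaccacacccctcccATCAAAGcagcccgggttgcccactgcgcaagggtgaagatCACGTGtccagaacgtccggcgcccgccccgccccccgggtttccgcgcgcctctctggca
Cdk6, chr5:3343643-3343942, plus strand: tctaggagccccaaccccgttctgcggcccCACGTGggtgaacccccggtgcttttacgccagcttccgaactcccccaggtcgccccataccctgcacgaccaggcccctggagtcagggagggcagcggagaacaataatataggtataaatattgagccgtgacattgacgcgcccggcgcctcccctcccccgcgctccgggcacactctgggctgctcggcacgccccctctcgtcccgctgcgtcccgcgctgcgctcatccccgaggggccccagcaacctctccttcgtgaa
Mycn, chr12:12941787-12942086, minus strand: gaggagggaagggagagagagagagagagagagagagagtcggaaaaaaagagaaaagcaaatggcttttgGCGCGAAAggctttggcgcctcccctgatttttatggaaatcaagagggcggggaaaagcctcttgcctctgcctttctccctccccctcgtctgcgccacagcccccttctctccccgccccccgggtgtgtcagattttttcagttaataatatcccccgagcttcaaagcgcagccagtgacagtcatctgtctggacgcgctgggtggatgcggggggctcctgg
The Cdk4 window held 4 E-boxes and 1 TCF/LEF site, the Cdk6 window 1 E-box, and the Mycn window 1 E2F site. Of all 32851 promoter windows, 7.15% held an E-box, 0.323% this E2F site, 0.253% this GLI site and 3.73% this TCF/LEF site, and 8 windows held at least 4 E-boxes. A match is only a run of letters, and binding was not measured.

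The antiproliferative genes all had negative log2 fold changes, but only Btg1 passed. Btg1 (ENSMUSG00000036478, chromosome 10, 96617001 to 96622813), of the BTG/TOB family whose proteins promote mRNA deadenylation, had 46.3, 50.4, 46.9 and 48.8 CPM in Mut_295, Mut_317, Mut_337 and Mut_340, against 64.2, 58.8, 68.6 and 56.5 CPM in Cont_294, Cont_345, Cont_365 and Cont_370. The Sufu-cKO samples were close to each other and all below the controls. Btg1 fell by 0.37 on the log2 scale (SE 0.070; edgeR, adjusted p = 0.00523), to 0.775 of the control level.

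Cdkn1a (ENSMUSG00000023067, chromosome 17, 29090979 to 29100722), the gene of p21 and a classical target of p53, had 26.4, 25.03, 28.6 and 22.7 CPM in Mut_295, Mut_317, Mut_337 and Mut_340, and 30.8, 27.7, 33.1 and 31.0 CPM in Cont_294, Cont_345, Cont_365 and Cont_370. Mut_337 alone lay above the lowest control. The log2 fold change was -0.25 (95% interval -0.44 to -0.06; edgeR, adjusted p = 0.0916). Cdkn1b (ENSMUSG00000003031, chromosome 6, 134920401 to 134925513), the gene of p27, which accumulates as neural progenitors leave the cycle, had 169, 167, 166 and 183 CPM in Mut_295, Mut_317, Mut_337 and Mut_340, and 178, 181, 185 and 191 CPM in Cont_294, Cont_345, Cont_365 and Cont_370. Here Mut_340 reached into the control range and the other Sufu-cKO samples did not. The log2 fold change was -0.10 (95% interval -0.21 to 0.01; edgeR, adjusted p = 0.277), and for both inhibitors none of the 16 alternative settings gave a call.

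Of the 24 other G1 network genes tested, 4 were called (16.7%), where 11.0% of all tested genes were. Of the other CDK inhibitors, Cdkn1c averaged 46.6 ± 11.6 CPM in Sufu-cKO and 54.4 ± 6.99 CPM in control (log2 fold change -0.22), and Cdkn2d 27.3 ± 1.39 CPM in Sufu-cKO and 22.7 ± 1.84 CPM in control (0.27; edgeR, adjusted p = 0.0526; n = 4 each). By edgeR 0 of the 3 tested inhibitors were called, with 1 (Cdkn2d) at an unadjusted p under 0.05 and 1 called by DESeq2, and Cdkn2a and Cdkn2b had too few counts. Among 8 cyclins and kinases of the G1 to S transition only Ccne2, cyclin E2, rose (0.37; edgeR, adjusted p = 0.0204), while Ccna2, cyclin A2, stood at 0.25 (SE 0.080; edgeR, adjusted p = 0.0663). Of 13 pocket protein and E2F genes, E2f8 (0.32), E2f1 (0.29) and Tfdp2 (0.23), which encodes a dimer partner of E2Fs, rose, and 10 did not pass. The medians of these 3 lists were 0.08, 0.04 and 0.04, beside 0.01 over all tested genes. Leaving out any single control ended the call of Ccne2 (edgeR, adjusted p up to 0.0589), and Tfdp2 lost it without Cont_345, Cont_365 or Cont_370 (up to 0.0617).

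Among 35 genes of the later cycle phases 3 were called (8.57%), near the 11.0% of all tested genes. At an unadjusted p under 0.05 (edgeR) were 6 of the 20 S phase genes and 6 of the 15 G2 and M phase genes. Over all 15382 tested genes, 3462 were. DESeq2 called 3 genes of each list, and 2124 of all tested genes. Of 20 S phase genes that E2Fs control, 17 had a positive log2 fold change, against 51.8% of all tested genes. Cdc6, which loads the replicative helicase, and Slbp, the histone mRNA binding protein, rose, both by 0.23 on the log2 scale (median of the list 0.08). Of 15 genes of G2 and M phase, 14 were positive and Ccnb2, cyclin B2, rose, with 120 ± 1.97 CPM in Sufu-cKO and 98.9 ± 2.28 CPM in control (0.28; edgeR, adjusted p = 0.00262; n = 4 each; median of the list 0.12). Top2a, the topoisomerase of dividing cells, stood at 0.21 and was not called. The highest value of this list, 0.32, was not called either (edgeR, adjusted p = 0.0771). Cdc6 lost its call without Mut_337, Cont_345 or Cont_365 (edgeR, adjusted p up to 0.0647), and that of Slbp was lost for 6 of the 8 samples when left out singly (up to 0.115).

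The MYC network, the listed MYC targets and the ligase genes held 1 call in 31 tested genes (3.23%), against 11.0% of all tested genes. Of 10 partners and antagonists of MYC, edgeR and DESeq2 called 0, and 0 had an unadjusted p under 0.05, with median log2 fold change -0.05, and the most abundant, Mga and Mlxip, stood at 0.01 and 0.03. Of 12 MYC targets Odc1, ornithine decarboxylase, was the only call and fell, with 121 ± 15.6 CPM in Sufu-cKO and 149 ± 6.17 CPM in control (-0.30; edgeR, adjusted p = 0.0313; n = 4 each). Ncl, nucleolin, stood at 0.02 (SE 0.062), and the median of the targets was -0.07 with 2 of 12 positive. Dropping single samples ended the call of Odc1 for 6 of the 8 (edgeR, adjusted p up to 0.104). Of 9 genes of the ubiquitin ligases that turn over D cyclins, p27 and MYC, edgeR and DESeq2 called 0, with 2 at an unadjusted p under 0.05, Cul1 and Huwe1 being at -0.02 and 0.06.

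Relatives of Btg1 moved in both directions. Tob1 fell, with 37.2 ± 2.07 CPM in Sufu-cKO and 47.4 ± 2.09 CPM in control (log2 fold change -0.35; edgeR, adjusted p = 0.00461; n = 4 each), whereas Btg2, which marks neurogenic progenitors and is also among the intermediate progenitor markers above, rose, with 179 ± 9.25 CPM in Sufu-cKO and 152 ± 10.9 CPM in control (0.23; edgeR, adjusted p = 0.0342). Tob2 was not called, and Btg3 and Btg4 had too few counts, so 2 of 3 tested relatives were called, beside 11.0% of all tested genes. Of 15 tested p53 targets, Trp53inp1 (-0.25) and Perp (-0.73) fell, and 13 did not pass (median -0.17). The 2 calls of 15 were near the 11.0% of all tested genes. Perp was scarce, with 1.90 ± 0.520 CPM in Sufu-cKO and 3.16 ± 0.414 CPM in control. Dropping single samples ended the call of Btg2 for 6 of the 8, of Perp for 7 and of Trp53inp1 for 3 (edgeR, adjusted p up to 0.0938, 0.133 and 0.0721).

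**Figure D5:**
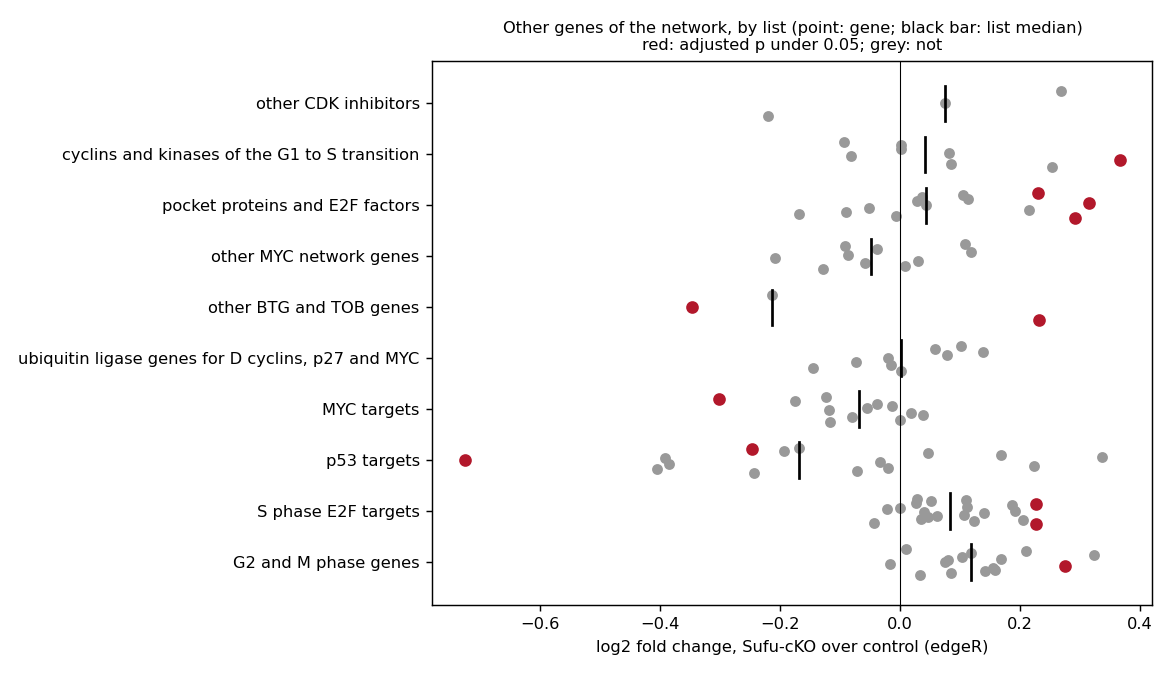
Log2 fold change (Sufu-cKO over control, edgeR) of each tested gene in 10 lists of the surrounding network; red marks an adjusted p under 0.05, grey the rest, and a black bar the list median. List medians lie between -0.21 and 0.12, and the S phase and G2 and M phase lists lie mostly right of 0.

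For each called gene, the genes with the most similar profile were taken as those with the smallest root-mean-square distance in centred log2 CPM over the 8 libraries, among 12594 candidates. Closest to Ccnd1 were Tmem256, Myo10, an unconventional myosin, and Scn11a, at distances of 0.091, 0.091 and 0.110, where the median candidate was at 0.451. Closest to Mycn were Ppp1r1a, Smarcd3, a chromatin remodelling subunit, and Ttyh1, at 0.064, 0.082 and 0.090 (median candidate 0.380). Cdk6 was matched by Sv2c, Dach2 and the cadherin Cdh20 at 0.236, 0.243 and 0.260 (median candidate 0.848), and Btg1 by Rnf182, Iqcg and Ngfrap1 at 0.051, 0.061 and 0.063 (median candidate 0.244). A gene that did not vary would lie at the called gene's own root-mean-square spread about its mean. That spread was 0.436 for Ccnd1, 0.355 for Mycn, 0.841 for Cdk6 and 0.200 for Btg1. The median candidates were near these values, so the medians say little about likeness. All these distances describe the same libraries that the test used.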

How the data were processed

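Male dorsal forebrain RNA was sequenced from libraries made with a stranded mRNA kit, per the labels' protocols. Reads were aligned with STAR 2.4.2a to GRCm38, per the submitters' processing notes. How reads were counted, with or without strand, and which tool gave the deposited test is not given in the sources used here. Raw counts that the authors deposited for 43629 gene IDs were tested. Another deposited table holds a normalised signal, which equals the counts divided by 1 size factor per sample, with the authors' fold change, a ratio, and its p-value and false discovery rate. Its log2 column, which holds spreadsheet error text, was not used, and 1 gene ID that had become a formula was restored. Columns matching no sample numbered 0.

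Groups follow the genotype labels. Whether samples came from separate embryos or litters is not stated, so the p-values reflect only how far these samples vary, and that spread may be technical. All pairs within a group differed by more than sampling noise (chi-square).

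The test was run with edgeR 4.0.16 under R 4.3.3: filterByExpr (minimum count 10, total 15) left 15382 genes with 99.9% of counts, followed by TMM scaling, the robust quasi-likelihood F-test, 2-sided, and Benjamini-Hochberg adjustment. Fold changes divide Sufu-cKO by control, with SE from the log2 fold change and F. Lengths are unions of GENCODE M21 exons. Ratios were tested with SciPy 1.17.1. Alternatives used DESeq2 1.42.0, limma 3.58.1, other scalings and filters, and each sample left out. In counts simulated for this comparison on 15228 genes, 50 genes were changed at each fold. The test recovered 24% of 1.25-fold, 68% of 1.5-fold, 68% of 2-fold and 98% of 4-fold changes. It made 9 false calls among the unchanged genes. Members, lists and tests were chosen with earlier results of these data known. Named genes were the 10 members, per list up to 4 called genes of lowest p (or, to reach 2, the most abundant genes), and 3 genes of like profile per called member.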

Additional observations from a re-analysis of the deposited data

Results flagged for a closer look

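In 2 of the 20 groups of 4 values (10 genes in each genotype), 1 sample stood apart from the other 3 by more than Dixon's 95% critical value for the gap over the range, and chance alone flags about 1 group in 20. Cdkn1b had 183 CPM in Mut_340, against 166 to 169 CPM in the other Sufu-cKO samples (gap over range 0.868). Mycn had 125 CPM in Cont_370, against 145 to 147 CPM in the other controls (0.932), and this lowest control was still above every Sufu-cKO sample.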

How the results depend on the processing

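Ccnd1, Cdk6, Mycn and Btg1 kept their direction and call under all 16 alternatives, with log2 fold changes of 0.77 to 0.89, 1.38 to 1.69, -0.75 to -0.62 and -0.42 to -0.32. Myc, Cdk4, Cdkn1a and Cdkn1b kept their direction and were not called under any. Ccnd2 was called lower under upper-quartile factors (-0.29; edgeR, adjusted p = 0.0430), total counts only (-0.29; edgeR, adjusted p = 0.0354), no low-count filter (-0.28; edgeR, adjusted p = 0.0370) and DESeq2 (-0.28; adjusted p = 0.0222), and ranged from -0.35 to -0.23 with 1 sample left out; the cause was not tested. Ccnd3 ranged from -0.20 to 0.04 with 1 sample left out, and was reversed, at 0.042, without Mut_340. All called genes numbered 1079 to 1836 with 1 sample left out, with 537 to 939 higher and 542 to 897 lower; the lowest counts came without Cont_345. Members called lower numbered 2 or 3. Leaving out 1 sample, the log2 ratios differed by 1.03 to 1.23 (Ccnd1 to Ccnd2), -1.07 to -0.90 (Mycn to Myc) and -1.76 to -1.44 (Cdk4 to Cdk6), where 3 against 4 samples cannot give an exact permutation p under 0.0571. The cell make-up of the tissue was not resolved. No paired analysis was possible because the groups share no sample number.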
